A study of Ovis aries with 6 samples.

Results

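Cycling keratinocytes are the dividing epithelial cells that renew the stratified lining of the rumen, the largest forestomach of ruminants. Their nuclei were chosen from transcripts: a nucleus was a member when at least 3 of the 6 genes ANLN, DIAPH3, CENPF, TOP2A, ASPM and CENPE and at least 2 of the 6 genes TP63, KRT15, SOX6, COL17A1, NRG1 and PAPSS2 were detected, with 0 UMIs (unique molecules counted) of the lymphocyte genes PTPRC, CD247 and THEMIS. The rule left 1618 members among 40419 quality nuclei (500 genes or more, mitochondrial UMIs no higher than 10%), out of 67553 barcodes. The MGNS animals gave 90, 136 and 197 members, the MGHS animals 218, 297 and 680. Values of single animals are listed in this order throughout, animal 1 first.

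Nuclear RNA was sequenced in 10x Genomics droplet libraries from ventral-sac rumen epithelium of 6 male lambs, 3 labelled MGNS and 3 labelled MGHS, with 1 library per animal. By its title the series is about supplementary feeding of sheep on pasture. Neither group name is spelled out, and the labels give no strain, age or feeding time, so every difference is stated as MGHS against MGNS. Sheep were picked at random within each group per the labels, and the animal is the replicate throughout.

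In a stratified epithelium, divisions take place in and just above the basal layer, and daughter cells move upward, stop dividing and cornify. Before S phase, licensing factors load the MCM helicase on DNA. Polymerases and nucleotide enzymes then copy the genome, and cyclin B with CDK1 drives entry into mitosis. The kinetochore joins chromosomes to the spindle, and the anaphase-promoting complex ends mitosis by marking cyclins for destruction. In the rumen the same epithelium also absorbs short-chain fatty acids, makes ketone bodies and exchanges protons and bicarbonate with the lumen.

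Summed over members, the MGNS animals had 1189375, 1428223 and 1808902 UMIs and the MGHS animals 2407989, 2943752 and 7481291, so MGHS 3 carried the deepest sum. The median member held 9758 ± 1512 UMIs in MGNS and 9251 ± 486 in MGHS (SD, n = 3 animals; two-sided exact permutation p = 0.8), and the groups overlapped. Barcodes shared between libraries numbered 561 over all pairs, with 0 identical profiles and 0 shared by members. Doublet calling marked 9.77% of members and 6.44% of keratinocyte nuclei without any of the 6 cycling markers. Those calls were left in and removed only as an alternative.

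The label was checked on genes that the rule had not used. Levels are in CPM, the gene's UMIs scaled to 1000000 UMIs of the nuclei summed in an animal, and are averaged over 6 animals. KRT5, a basal keratin, stood at 1197 ± 210 CPM (SD, n = 6) in members with at least 4 of the 6 keratinocyte genes and at 23.1 CPM in 312 cycling nuclei with lymphocyte genes. Those 312 were chosen to have lymphocyte genes and few or none of the 6 keratinocyte genes, so part of the gap follows from that choice. ITGA6 and ITGB4, the integrin pair of hemidesmosomes, stood at 226 and 114 CPM against 45.8 and 11.6 CPM in the lymphocyte-gene nuclei. MKI67, the proliferation antigen, stood at 156 ± 17.3 CPM in those members and 1.62 ± 0.793 CPM in non-cycling keratinocytes. Over all members KRT5 and MKI67 stood at 1170 ± 224 and 153 ± 15.9 CPM. Genes outside the rule thus went with both parts of the label, but between classes that the rule's own genes had set apart.

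Immune and fibroblast markers were lower in members than in nuclei without any keratinocyte gene. Members had to lack the lymphocyte genes of the rule and the other nuclei every keratinocyte gene, so part of this gap follows from the choice. The 9 T and NK cell genes summed to between 21.6 and 56.0 CPM per animal, where nuclei without any keratinocyte gene held 1557 to 3586 CPM. The 8 B and plasma cell genes summed to at most 32.2 CPM and the 9 myeloid genes to at most 40.6 CPM. The 10 fibroblast genes were all detected and summed to 339 to 793 CPM, against 2063 to 4946 CPM in nuclei without keratinocyte genes. The 8 glial genes summed to 42.9 to 115.5 CPM, against 39.6 to 120.9 CPM in nuclei without keratinocyte genes, and were lower in members of 4 of 6 animals. Of these, CDH19 was at 0, and of the melanocyte genes MLANA and TYRP1 were at 0.

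The genes that chose the members are given as description only. ANLN, an actin-binding protein of the cleavage furrow, was detected in 84.4% to 92.7% of members per animal, and CENPF, a kinetochore protein, in 77.9% to 87.3%. TOP2A, the topoisomerase that untangles sister chromatids, was found in 72.8% to 85.6%, and ASPM, a spindle-pole protein, in 52.2% to 63.3%. DIAPH3, an actin-nucleating formin, was found in 77.8% to 86.8% and CENPE, a kinetochore motor, in 61.3% to 72.2%. TP63, the master regulator of stratified epithelium, was found in 95.4% to 96.7%, and KRT15, a basal keratin, ranged from 68.4% to 98.0%. SOX6 was detected in 82.2% to 92.2%, NRG1 in 74.8% to 86.7%, PAPSS2 in 79.5% to 95% and COL17A1 in 62.9% to 78.9%. All 6 cycling markers were detected in 484 members and exactly 3 in 434, while all 6 keratinocyte genes were detected in 808.

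Nuclei on either side of the threshold of 3 cycling markers differed in more than those markers. In keratinocyte nuclei with exactly 2 markers, 1259 in all, DIAPH3 and ANLN stood at 223 ± 61.5 and 102 ± 15.9 CPM (SD, n = 6), while TOP2A and CENPF stood at 26.4 ± 11.6 and 38.2 ± 18.0 CPM. Members with exactly 3 markers held 111 ± 30.03 CPM of TOP2A and 33.1 ± 13.4 CPM of MKI67, and all members 447 ± 54.5 and 153 ± 15.9 CPM. Nuclei with exactly 2 markers also held more transcripts of the upper layers. DSC1, a desmosomal cadherin of differentiating layers, stood at 1161 ± 481 CPM with 2 markers, 448 ± 199 CPM with 3 and 299 ± 142 CPM over all members. KRTDAP, a differentiation-associated secreted protein, stood at 767 ± 301, 317 ± 196 and 237 ± 120 CPM in the same order, and TGM1, a cornified-envelope transglutaminase, at 159 ± 59.7, 72.3 ± 35.4 and 53.1 ± 21.8 CPM. Nuclei with exactly 2 markers were also deeper than members in 6 of 6 animals, with median UMIs of 9269 to 12893 per animal against 8381 to 11376, and the part of depth in these values was not tested. DIAPH3 and ANLN detection reached into nuclei with little MKI67 and more differentiation transcripts. For the means of TOP2A, MKI67, DSC1, KRTDAP and TGM1, members with exactly 3 markers lay between these nuclei and all members. TP63 and KRT15 did not follow this. They stood at 1280 and 961 CPM with 2 markers, 1783 and 1624 CPM with 3, and 1777 and 1655 CPM over all members.

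**Figure D1:**
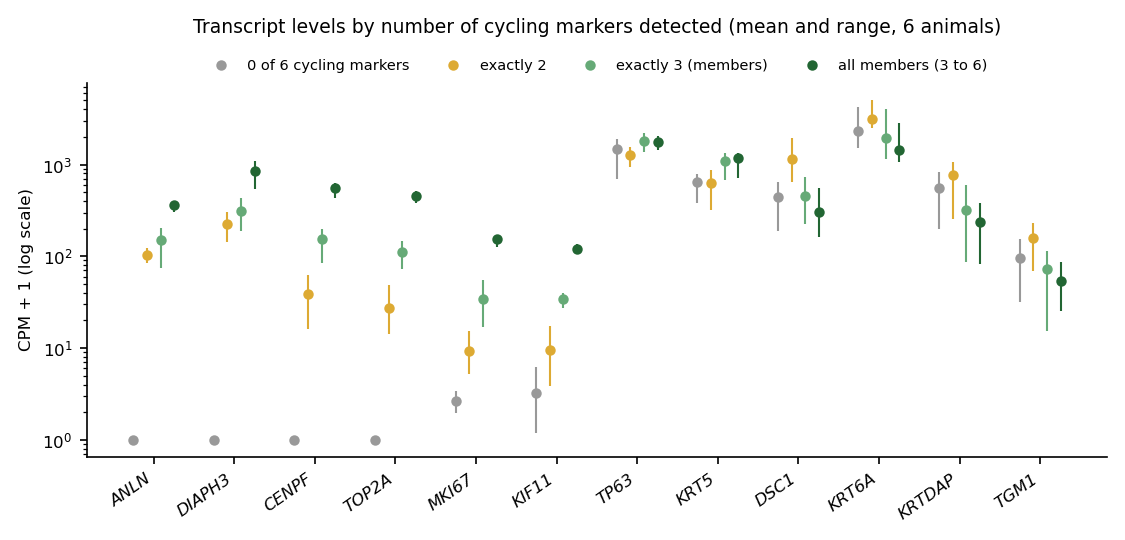
CPM plus 1 on a log axis for 12 genes in keratinocyte nuclei with 0, exactly 2, exactly 3 and 3 to 6 cycling markers. Points are means and bars the range over 6 animals. MKI67 climbs from 1.66 CPM with 0 markers to 153 CPM over all members, while DSC1 is highest at 1161 CPM with exactly 2 markers.

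Members were next set beside non-cycling keratinocytes of the same animals, without a test because the rule chose them on these transcripts. Both classes were limited to nuclei with at least 4 of the 6 keratinocyte genes, 1488 cycling and 2493 non-cycling. That limit was chosen after seeing the data. Without it the non-cycling class, 4783 nuclei, carried 1042 to 4146 CPM of fibroblast genes per animal, against 273 to 1255 CPM with it. Differences below are mean log2 ratios with 1 CPM added. Over 7477 genes with at least 20 CPM in either class the median log2 ratio was −0.01, with 1152 genes higher and 990 lower in all 6 animals.

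Licensing and replication genes were moderately higher in cycling nuclei. Of 9 licensing genes at that level, 8 were higher in all 6 animals, with a median log2 ratio of 1.44. TICRR, which helps start origins, stood at 46.5 CPM in cycling and 0.865 CPM in non-cycling nuclei. MCM10 differed by 1.60 and MCM2, a helicase subunit, by 1.55 on the log2 scale, whereas ORC6, an origin recognition subunit, was higher in 5 of 6 animals. All 19 DNA synthesis genes were higher in all 6 animals, with a median of 1.40. RRM2, the regulated subunit of ribonucleotide reductase, reached 3.68 and CLSPN, a fork checkpoint adaptor, 3.65, while WDHD1, a replisome adaptor, differed by 0.44. The 15 fork repair genes were also higher in all 6 animals, led by BRCA1 at 3.94 and FANCD2 at 3.71 on the log2 scale.

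E2F, RB and cyclin genes split. Of 12 at that level, 7 were higher and 2 lower in all 6 animals. CCNA2, the S and G2 cyclin, stood at 54.3 ± 8.46 CPM in cycling and 1.60 ± 0.869 CPM in non-cycling nuclei, and E2F7, a repressor of E2F targets, at 33.5 and 2.64 CPM. CCND3 and CCND2, D-type cyclins of early G1, were lower in cycling nuclei, by log2 ratios of −0.96 and −0.48. Among 9 genes of cycle exit, CCNG2 differed by 1.098 and CDKN1B, which encodes the inhibitor p27, by 0.57, both higher in all 6 animals. BTG1, an antiproliferative gene, was lower in all 6 with a log2 ratio of −0.30.

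Mitotic genes showed the widest gap. Most of the 6 cycling markers also act in mitosis, among them CENPF, ASPM and CENPE, and non-cycling nuclei had to lack all 6. The part of that choice in the gap was not tested. All 18 mitotic entry genes were higher in all 6 animals with a median log2 ratio of 4.09, and CDK1 stood at 73.1, 55.2 and 85.1 CPM in MGNS against 65.8, 64.4 and 61.4 CPM in MGHS. In non-cycling nuclei CDK1 never passed 1.32 CPM, so the classes did not overlap. All 23 kinetochore and checkpoint genes and all 19 spindle and kinesin genes were higher in all 6 animals, with medians of 3.54 and 4.70. NDC80, the microtubule-binding kinetochore subunit, stood at 115 against 1.15 CPM, BUB1B, a checkpoint kinase relative, at 125 against 2.27 CPM and KIF11, the motor that separates spindle poles, at 124 ± 11.3 against 2.11 ± 2.11 CPM. All 14 condensation genes were higher in all 6 animals (median 3.12), with CDCA2 at 5.26 and TMPO, a nuclear lamina protein, at 1.77. Of 15 genes of anaphase and exit, 14 were higher in all 6, and DLGAP5, a spindle protein, and UBE2C, the ubiquitin-conjugating partner of the anaphase-promoting complex, differed by 5.68 and 5.12. ANAPC10, a core subunit of that complex, was the other one, at 58.3 against 55.6 CPM.

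**Figure D2:**
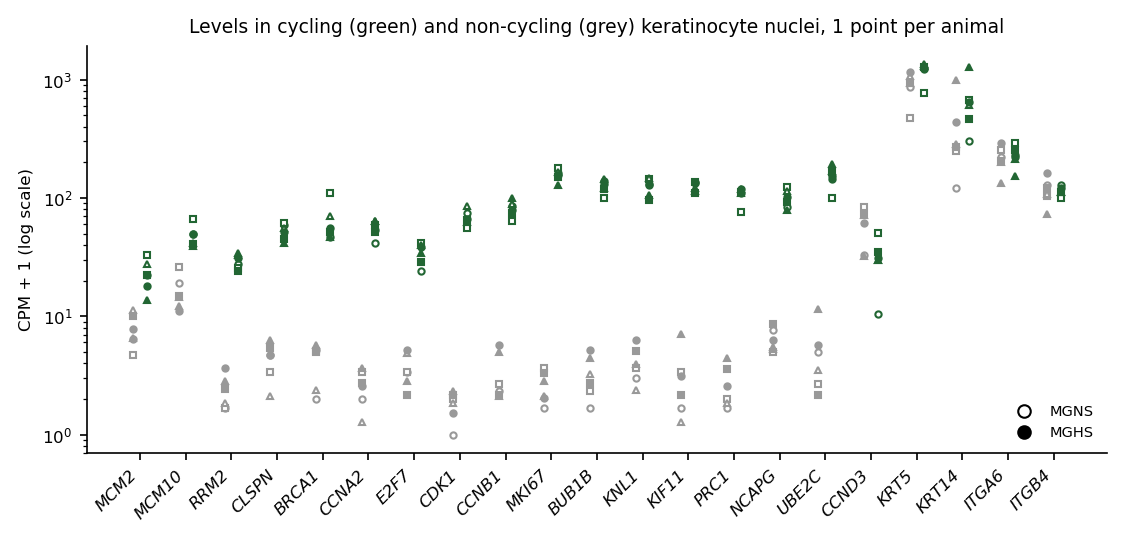
CPM plus 1 on a log axis for cell cycle and keratin or integrin genes, 1 point per animal in cycling (green) and non-cycling (grey) keratinocyte nuclei with at least 4 keratinocyte genes. Open points are MGNS and filled points MGHS. CDK1 lies at 55.2 to 85.1 CPM in cycling nuclei and at most 1.32 CPM in non-cycling ones, while ITGA6 overlaps.

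Among genes outside the lists PMFBP1 had a ratio of 5.64 on the log2 scale. PMFBP1 stood at 284, 279 and 339 CPM in MGNS against 242, 232 and 158 CPM in MGHS, against at most 8.44 CPM in non-cycling nuclei. In the cycling nuclei with lymphocyte genes PMFBP1 averaged 11.8 CPM, against 255.7 CPM in cycling keratinocytes. PRR11, PARPBP, CCNF, CEP55, CDCA3, PCLAF, SHCBP1 and IQGAP3 followed at 4.95, 4.69, 4.58, 4.54, 4.29, 4.28, 4.26 and 4.22. Among these, CCNF is the founding F-box protein, CEP55 acts at abscission and PCLAF binds the sliding clamp of replication.

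Layer genes differed for a few members of their lists. KRT14, a basal keratin, stood at 299, 677 and 604 CPM in MGNS against 647, 467 and 1271 CPM in MGHS, and was higher than in non-cycling nuclei of the same animal in all 6. KRT5 was also higher in all 6, with a log2 ratio of 0.43, while ITGA6 and ITGB4 differed by 0.07 and 0.02. The 17 basal genes had a median of −0.01. Of 10 spinous genes 3 were lower in all 6 animals, among them KRT13 at 203 against 295 CPM and PKP1, a desmosomal plaque protein, at 114 against 172 CPM. Among 10 granular and cornified genes, EVPL, a cornified-envelope plakin, was lower in all 6 with −0.65. KRT6A, a stress-induced keratin, was lower in all 6 with −0.45.

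Lists of growth, transport, metabolic and antioxidant genes had median log2 ratios between −0.18 and 0.16. Of 27 growth and stem genes 8 were lower in all 6 animals, including the receptors FGFR3 at −0.64 and NOTCH1 at −0.48, and MTOR was higher in all 6 with 0.42. SLC4A4, a bicarbonate cotransporter, was lower in all 6 with −1.26. PDK4, the kinase that restrains pyruvate entry to the citric acid cycle, was lower in all 6 with −0.94. Of 13 glycolysis genes 6 were higher in all 6, including PKM at 0.60 and LDHB at 0.59. Of 21 antioxidant genes 10 were higher in all 6, with the peroxiredoxin PRDX1 at 0.68. HSP90AA1, a chaperone, differed by 0.78 and was also higher in all 6.

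The first comparison between groups asked how common the members were. They made up 1.93%, 1.72% and 2.76% of quality nuclei in MGNS against 3.84%, 4.67% and 7.84% in MGHS. The groups did not overlap, and MGHS 3 was the highest. Without MGHS 3 the difference of means was 2.12 percentage points in place of 3.31. The mean was 2.14 ± 0.551% in MGNS and 5.45 ± 2.11% in MGHS (SD, n = 3; two-sided exact permutation p = 0.1, and 0.133 after Benjamini-Hochberg adjustment over 4 measures). With 3 animals against 3 an exact test cannot go below 0.1, so no share could pass 0.05. Exact Clopper-Pearson 95% intervals, which cover counting error only, were 1.45% to 2.03% for the lowest animal and 7.28% to 8.43% for the highest.

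A share of all nuclei also moves with immune and stromal nuclei. Members were therefore counted within the 11086 nuclei that met the keratinocyte and lymphocyte parts of the rule, the keratinocyte gate. Their share was 9.84%, 8.56% and 11.4% in MGNS against 15.4%, 14.96% and 19.7% in MGHS. The means were 9.94 ± 1.44% and 16.7 ± 2.61%, without overlap (exact permutation p = 0.1). Without MGHS 3 the difference was 5.23 points in place of 6.73. The gate still held fibroblast transcripts, unequally by group. In its nuclei without cycling markers the 10 fibroblast genes summed to 1303, 1042 and 1486 CPM in MGNS against 3203, 2376 and 4146 CPM in MGHS. Their part in the share was not tested. Nuclei with at least 2000 UMIs were then thinned to that number, which left out 6.61% to 7.65% of gate nuclei in MGNS animals and 9.32% to 11.8% in MGHS animals as shallower. On the thinned counts the whole rule gave 7.22 ± 1.40% in MGNS and 11.9 ± 2.58% in MGHS, also without overlap (exact permutation p = 0.1). Members and gate were both chosen anew on these counts, so the gate was not made of the same nuclei. It held 874, 1490 and 1513 nuclei in MGNS and 1101, 1532 and 2593 in MGHS. A nucleus left out for a lymphocyte gene at full depth could enter here, and the part of this in the shares was not tested.

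The lymphocyte part of the rule removed unequal shares. Among cycling nuclei with keratinocyte genes, 54.5%, 57.0% and 35.4% were left out for a lymphocyte gene in MGNS, and 26.6%, 21.2% and 34.8% in MGHS. For non-cycling nuclei with keratinocyte genes these shares were 41.8%, 51.7% and 34.1% in MGNS and 29.5%, 19.7% and 32.9% in MGHS. Of the 918 cycling nuclei left out, 316 were on a single UMI. Counted without that exclusion, members were 4.24%, 3.999% and 4.28% of quality nuclei in MGNS against 5.23%, 5.93% and 12.02% in MGHS. The groups still did not overlap, and the ratio of means was 1.85 in place of 2.55. Within the keratinocyte gate it was 1.496 in place of 1.68.

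**Figure D3:**
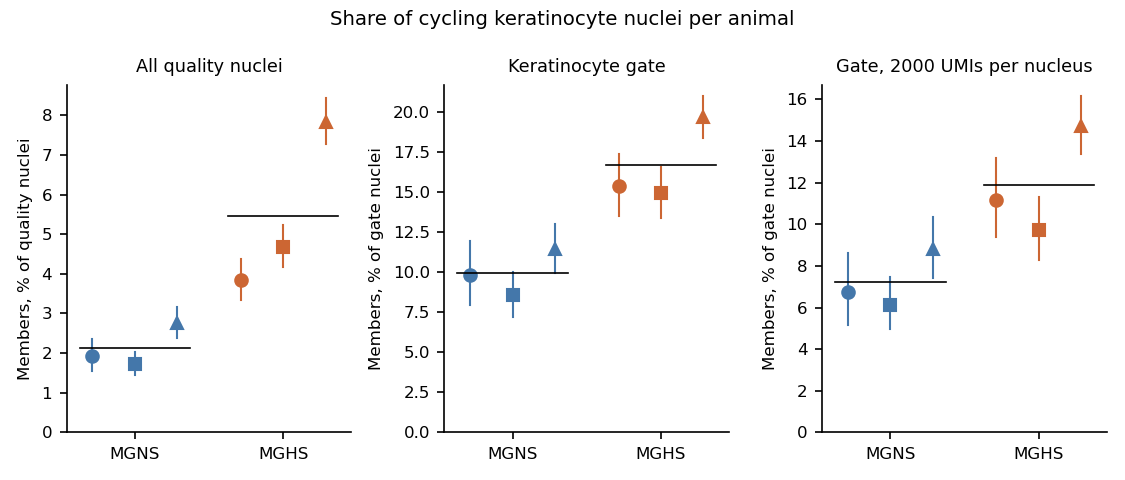
Members as a percentage of all quality nuclei (left) and of keratinocyte-gate nuclei (middle), 1 point per animal. On the right, members and gate were both chosen anew from counts thinned to 2000 UMIs. Bars are exact 95% binomial intervals and lines are group means. The MGHS animals lie above every MGNS animal in all 3 panels, with means of 5.45% against 2.14% on the left.

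The balance of replication and mitotic transcripts was then compared. At 2000 UMIs, between 88.6% and 92.3% of members per animal held a UMI of the 47 replication genes and between 96.8% and 99.3% one of the 96 mitotic genes, none of them a rule gene. In non-cycling nuclei with at least 4 keratinocyte genes these shares were 67.1% to 75.9% and 73.1% to 82.7%, so a UMI of either list was common in both classes. Without thinning the shares of members were 98.3% to 100% and 99.5% to 100%. The ratio of replication to mitotic UMIs was 0.206, 0.292 and 0.234 in MGNS against 0.236, 0.256 and 0.242 in MGHS, so the groups overlapped. It lay between 0.755 and 0.910 in non-cycling nuclei with at least 4 keratinocyte genes, and between 0.731 and 0.925 without that limit. Those nuclei had to lack the cycling markers, most of them mitotic, and the part of that choice in the ratio was not tested. Summed mitotic entry genes, on the scale below, were 1388, 1105 and 1479 CPM in MGNS against 1352, 1347 and 1320 CPM in MGHS, also overlapping. Neither the ratio nor the mitotic entry sum, which holds no replication genes, separated the groups.

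Genes were then compared between the groups within members, on sums per animal. Values are CPM scaled by TMM, a factor that keeps the bulk of genes level between animals. Where a log2 fold change is followed by ±, the second value is its standard error (SE). No gene of 11582 passed an adjusted p of 0.05 in edgeR's quasi-likelihood test, which is 0% called. The smallest adjusted p was 0.0537, and 1200 genes had an unadjusted p under 0.05. DESeq2 called 103 genes (0.889%) and limma voom 15 (0.130%). The groups did not overlap for 1017 genes higher in MGHS (8.78%) and 941 lower (8.12%). In plain CPM the split was 580 (5.01%) and 1646 (14.2%), where the median gene differed by −0.13 on the log2 scale.

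Selenoprotein and antioxidant genes had the highest median of the 22 lists of functions. Of 27 tested, 11 were higher in MGHS without overlap and 1 lower (8.78% and 8.12% over all genes), and 0 were called. The median log2 fold change was 0.63 against 0.02 over all genes. GPX1, the cytosolic glutathione peroxidase that uses selenium, stood at 73.6, 34.6 and 56.4 CPM in MGNS against 375, 312 and 511 CPM in MGHS. Its log2 fold change was 2.87 ± 0.32 (SE; edgeR adjusted p = 0.0537), with no overlap of the groups. GPX1 passed in 14 of 20 alternatives, with adjusted p between 1.09e-14 and 0.142. SELENOW, a small redox selenoprotein, stood at 73.6, 52.2 and 58.0 CPM against 235, 169 and 229 CPM, a log2 difference of 1.79 ± 0.22 (SE; edgeR adjusted p = 0.0653). It passed in 8 of 20 alternatives.

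A further 9 members of the antioxidant list were higher in MGHS without overlap, and none passed. HMOX1, the enzyme that breaks down heme, had 0, 1 and 2 UMIs in MGNS against 81, 39 and 92 in MGHS, a ratio of pooled rates of 24.4 with a 95% counting interval of 8.23 to 119. That interval covers counting error only, not the spread between animals. The fitted log2 fold change of HMOX1 was 4.88 (edgeR adjusted p = 0.108), and 3.89 without doublet calls. GCLM, the modifier subunit of glutathione synthesis, stood at 180, 160 and 156 CPM against 311, 325 and 288 CPM (0.90 ± 0.18, SE; edgeR adjusted p = 0.216). SOD1, the copper and zinc superoxide dismutase, stood at 147, 83.6 and 184 CPM against 268, 276 and 398 CPM, and TXN, thioredoxin, at 605, 492 and 681 CPM against 1183, 769 and 2194 CPM. TXN differed by 1.22 on the log2 scale and by 0.71 without MGHS 3. SELENOH, GPX4, MGST1, PRDX1 and CAT were the remaining members higher without overlap, with log2 differences of 1.28, 1.15, 0.72, 0.63 and 0.22. Those of SELENOH, GPX4, MGST1 and PRDX1 kept their sign in every alternative, and that of CAT was −0.13 after thinning. SLC7A11, the cystine importer, was the one lower member, at −2.23 ± 0.62 (SE; edgeR adjusted p = 0.340), and at −1.62 without MGNS 3.

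Genes with small p outside that list lay on both sides. SLC28A3, a concentrative nucleoside transporter, stood at 47.7, 94.3 and 65.7 CPM in MGNS against 18.9, 9.19 and 10.2 CPM in MGHS (−2.47 ± 0.35, SE; edgeR adjusted p = 0.108). GNA14, a G-protein alpha subunit, stood at 176, 118 and 171 CPM against 60.5, 40.4 and 50.9 CPM (−1.61 ± 0.23, SE; edgeR adjusted p = 0.108). ADTRP, which hydrolyses fatty acid esters of hydroxy fatty acids, stood at 82.0, 64.1 and 85.4 CPM against 33.2, 33.4 and 28.3 CPM. All of these groups were separate, and the same was true of IGFBP5, an insulin-like growth factor binding protein, at 38.5, 24.5 and 29.6 CPM against 117, 175 and 81.0 CPM. PRSS22, a serine protease, was higher by 2.83 ± 0.44, and RGS7, a regulator of G-protein signalling, and C1R, a complement protease, differed by −2.05 ± 0.32 and −1.91 ± 0.31 (log2, SE), with edgeR adjusted p of 0.121 to 0.130. SLC28A3 passed in 6 alternatives, GNA14 and IGFBP5 in 4 each, ADTRP, PRSS22, HMOX1 and C1R in 3 each and RGS7 in 2.

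**Figure D4:**
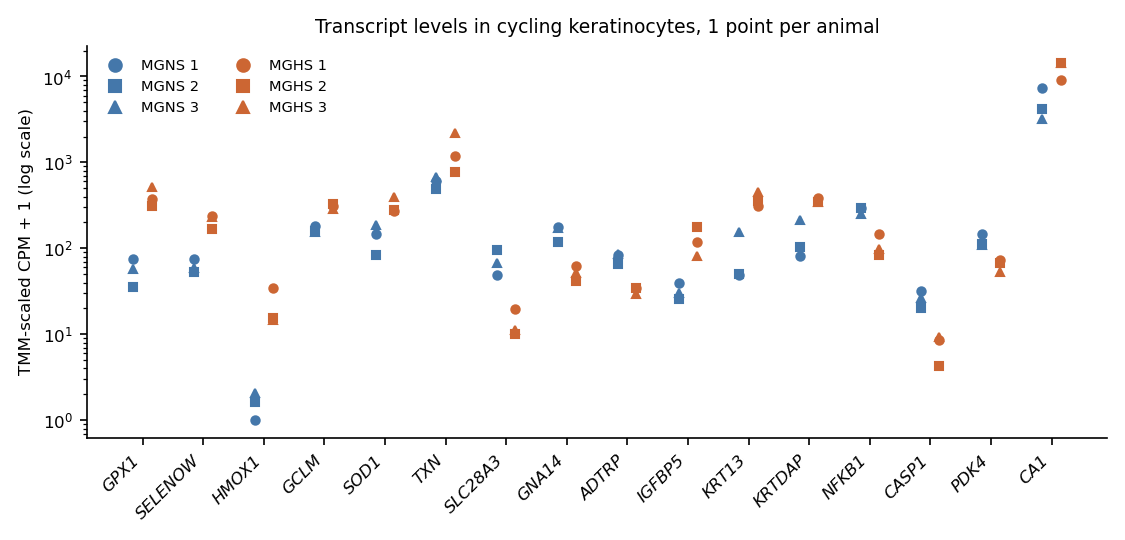
TMM-scaled CPM plus 1 on a log axis for single genes in members, 1 point per animal (blue MGNS, orange MGHS; symbols mark animals 1 to 3). GPX1 lies at 34.6 to 73.6 CPM in MGNS and 312 to 511 CPM in MGHS, and SLC28A3 in the opposite order.

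Inflammatory signalling genes stood lower. Of 19 tested NF-kB and cytokine genes, 8 were lower in MGHS without overlap and 1 higher, against 8.12% and 8.78% of all genes. Of these 19, 0 were called, and the median was −0.49. NFKB1, which encodes the p105 precursor of the p50 subunit, stood at 290, 291 and 250 CPM in MGNS against 145, 82.0 and 97.3 CPM in MGHS (−1.36 ± 0.24, SE; edgeR adjusted p = 0.164). CASP1, the inflammasome protease, stood at 30.9, 19.5 and 25.2 CPM against 7.56, 3.31 and 8.39 CPM, again separate. TLR3, a sensor of double-stranded RNA, BIRC3, RELB, NOD2, a sensor of bacterial cell wall, TNFAIP3, a brake on NF-kB, and NFKB2 made up the other lower members. Their log2 differences were −1.77, −0.93, −1.33, −0.94, −1.01 and −0.49. NFKB2 was at −0.02 without doublet calls, NOD2 at −0.38 after thinning and TLR3 at −1.04 without the lymphocyte exclusion. The T and NK cell genes summed to 28.4, 50.3 and 44.4 CPM in MGNS against 21.9, 27.9 and 33.7 CPM in MGHS, and their part in these values was not tested. Interferon and antigen presentation genes had a median of −0.91 over 18 tested, but none was separate between groups. B2M, the class I light chain, was at 2006, 2496 and 282 CPM in MGNS against 793, 315 and 738 CPM in MGHS, so MGNS 3 was the lowest of all.

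Transport and ketone genes were mixed, with more members higher than lower. Of 20 short-chain fatty acid and pH transport genes, 5 were higher without overlap and 1, the proton exchanger SLC9A8, lower. Over all genes these shares were 8.78% and 8.12%. Of the 20, 0 were called, and the median was 0.50. CA1, a carbonic anhydrase, stood at 7281, 4194 and 3201 CPM in MGNS against 9027, 14170 and 14220 CPM in MGHS. SLC4A4 differed by 1.47 ± 0.43, SLC9A2, a sodium-proton exchanger, by 1.19 ± 0.38, SLC16A1, the monocarboxylate transporter MCT1, by 0.78 ± 0.34 and SLC26A3, a chloride-bicarbonate exchanger, by 1.87 ± 0.99 (log2, SE). The value of SLC26A3 was 3.41 without MGNS 3. Of 18 ketogenesis and fatty acid genes, 4 were higher and 2 lower without overlap, with a median of 0.17 and 0 called. BDH1, which makes beta-hydroxybutyrate, differed by 0.58 ± 0.19. PDK4 was lower, at 146, 113 and 109 CPM against 71.9, 66.9 and 52.3 CPM (−0.94 ± 0.20, SE; edgeR adjusted p = 0.256).

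Cell cycle lists had medians near that of all genes within members. Members of both groups were chosen on the same cycling markers, and the part of that choice in these medians was not tested. Medians of the 10 lists from licensing to anaphase and exit lay between −0.19 for fork repair and 0.06 for DNA synthesis, and 0 of their genes were called. In non-cycling nuclei, over the 6 to 25 genes of each list tested in both classes, their medians lay between 0.05 and 0.54. Among licensing genes ORC6 stood at 15.1, 18.2 and 21.9 CPM in MGNS against 33.6, 36.4 and 32.7 CPM in MGHS, without overlap (0.88 ± 0.22, SE; edgeR adjusted p = 0.309). PLK1, a mitotic kinase, differed by 0.52 ± 0.22, PRIM1, a primase subunit, by 0.44 ± 0.18 and CCNG2 by 0.58 ± 0.24. CDC25A, the phosphatase of the G1 to S step, TICRR and LMNB1 were lower without overlap, by −0.94, −0.51 and −0.55 on the log2 scale. None of these passed, and PLK1 was at 0.12 after thinning. The rule genes were separate only for KRT15, higher by 0.85 ± 0.47, and NRG1, lower by −0.66 ± 0.31, as values from which members were chosen.

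Differentiation genes had no common direction, and none passed. KRT13, a keratin of non-cornified layers, stood at 47.7, 49.7 and 152 CPM in MGNS against 311, 359 and 446 CPM in MGHS (2.15 ± 0.45, SE; edgeR adjusted p = 0.262). KRTDAP stood at 81.1, 103 and 213 CPM against 385, 344 and 344 CPM (1.43 ± 0.33, SE; edgeR adjusted p = 0.296). KRT13 was at 2.92 without MGNS 3, and KRTDAP at 0.63 without the lymphocyte exclusion. Counts of separate genes in the lists below stand beside 8.78% higher and 8.12% lower over all genes. Of 12 spinous genes 3 were higher without overlap and 7 had a log2 fold change above 0, with a median of 0.10. Of 12 granular and cornified genes 2 were higher without overlap and 5 were above 0, with a median of −0.19, and none of either list was lower without overlap. Of 18 basal genes 3 were higher and 1 lower, with LAMB3, a laminin chain of the basement membrane, at 0.46 ± 0.18 and at 0.02 after thinning. In the remaining lists, 4 of 18 nucleoside and nucleotide genes were lower without overlap, among them CTPS1 at −0.93. HK2, a hexokinase, and MTOR were also lower without overlap, by −3.36 and −0.56, with HK2 at 62.8 CPM in MGNS 2 alone and 1.47 to 10.0 CPM elsewhere. Without MGNS 2 the value of HK2 was −1.88.

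**Figure D5:**
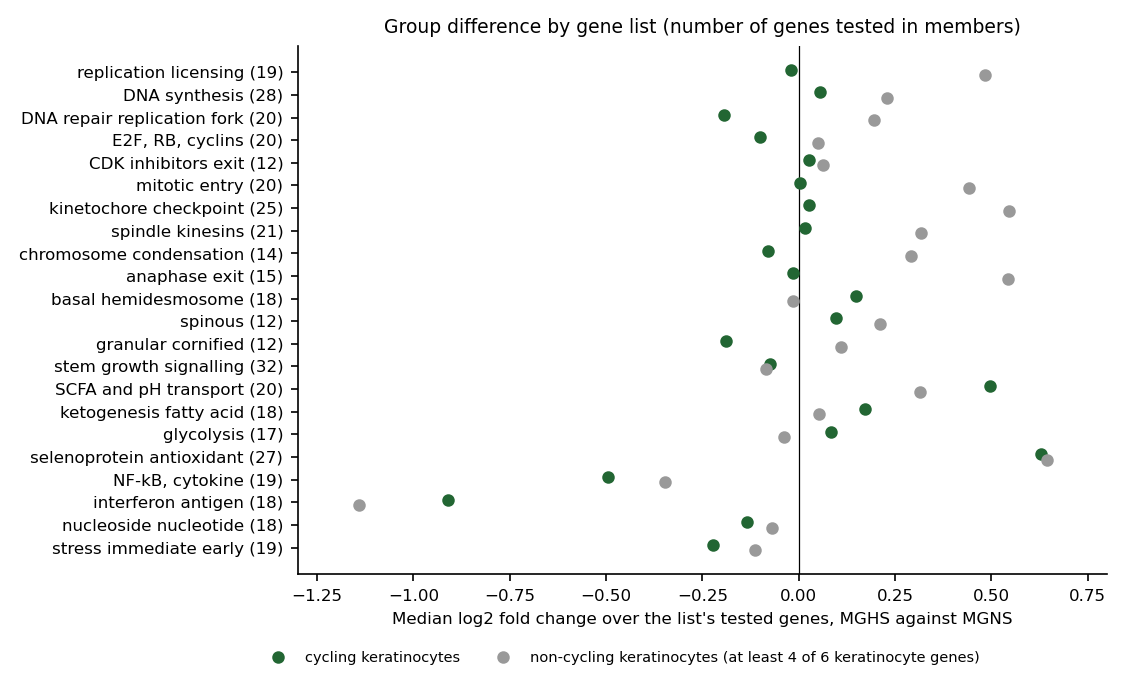
Median log2 fold change of each list, MGHS against MGNS, in cycling keratinocytes (green, all tested genes) and in non-cycling keratinocytes (grey, the genes tested in both classes). The antioxidant list lies at 0.63 and 0.64 and the NF-kB list at −0.49 and −0.35.

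The same animals' non-cycling keratinocytes were set beside these values. In the class as planned, edgeR called 2 of 13970 genes (0.0143%), GPX1 higher and GNA14 lower. With at least 4 keratinocyte genes 1 was called, GPX1 at 2.99 (edgeR adjusted p = 0.0443), where SELENOW differed by 1.59, SLC28A3 by −2.41, NFKB1 by −1.38 and KRT13 by 1.72. Whether the group difference itself differed between the classes was tested in 1 fit with the animal as a term. It passed for 2 of 14115 genes (0.0142%), KIF26B, a kinesin relative, and LOC101111805. For GPX1, SELENOW and SLC28A3, in classes with at least 4 keratinocyte genes, that difference was −0.17, 0.16 and −0.13 on the log2 scale (edgeR adjusted p = 1 for each). No difference of the groups among these genes was thus shown to be particular to cycling nuclei.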

How the data were processed

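The deposited files give unscaled UMI counts, whole numbers for each gene in each barcode. The file headers name Cell Ranger 8.0.0, whereas the submitters' processing notes name version 2.1.1, and this difference is not resolved here. The authors' genome build and barcode filter: not given in the sources used here. All 26741 gene IDs were matched to symbols of ARS-UI_Ramb_v3.0, for names only.

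UMIs were summed per animal and class and tested with edgeR 4.0.16 (filterByExpr with minimum count 10, TMM, robust quasi-likelihood F test, Benjamini-Hochberg at 0.05) in R 4.3.3. DESeq2 1.42.0 and limma 3.58.1 were alternatives, as were other filters, leaving out each animal and a replicate block. SE is the absolute log2 fold change over the square root of F. Shares used two-sided exact permutation tests over animals. Scripts were tested on simulated data. Doublets were called with Scrublet, which in MGNS 1 and MGNS 2 was replaced by the top scores.

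Members and lists were chosen with earlier results of these data known. Named genes were the 10 symbols with the smallest p, the 2 smallest p of each list, the list members with the largest and smallest class ratios, 10 genes outside the lists, and GPX1, SELENOW and SLC28A3. Further list members were named after their values were seen. Of 570 list genes 19 were not in the files. How reads of near-identical or overlapping genes were counted is not stated, so values of multigene families are uncertain. A few genes that this rule names are not reported here.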

Additional observations from a re-analysis of the deposited data

Results flagged for a closer look

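The group difference was unequal between cycling and non-cycling keratinocytes for 2 genes, by the test of that inequality. KIF26B had a log2 fold change of −0.14 in members and 1.72 in non-cycling nuclei, so the difference of differences was −1.865 ± 0.22 (SE; edgeR adjusted p = 0.0283). Its levels in non-cycling nuclei were 61.3, 36.4 and 69.1 CPM in MGNS against 127, 115 and 260 CPM in MGHS, against 21.4 to 49.8 CPM in members. LOC101111805 had −0.74 and 1.11, a difference of −1.91 ± 0.25 (SE; edgeR adjusted p = 0.0492). The non-cycling class also carried more fibroblast transcripts, with COL3A1 at 192 to 337 CPM in MGNS and 682 to 1272 CPM in MGHS. With at least 4 keratinocyte genes in both classes, the differences were −1.38 for KIF26B and −2.03 for LOC101111805, and neither passed (edgeR adjusted p = 1 for both). KIF26B in non-cycling nuclei was at 7.04 to 30.1 CPM in MGNS and 40.1 to 76.0 CPM in MGHS. The part of fibroblast transcripts in these values was not tested.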

How the results depend on the processing

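Each of the 3 shares of members was higher in MGHS without overlap under every alternative run, with all animals and with single animals left out. The difference within the gate, 6.73 points, was 10.15 with at least 3 and 12.81 with at least 4 keratinocyte genes, and 4.27 with at least 1. At equal depth, 4.66 points became 2.13 with at least 4 cycling markers, 7.59 with at least 4 keratinocyte genes, 2.98 when nuclei were thinned to fewer UMIs and 7.30 when thinned to more. The MGHS minus MGNS difference in median UMIs per member, −507.5, was 87.5 with at least 4 cycling markers, and between −1196 (without MGNS 3) and 301.1 (without MGNS 1) when single animals were left out. Calls in members, 0 with edgeR, were 2 with RLE scaling, 103 with DESeq2, 15 with limma voom, 41 without the filter on low counts, 3 with at least 4 cycling markers, 2 with at least 300 or at least 1000 genes, 1 without doublet calls, 16 after thinning, 2 without the rule genes and 0 to 4 when single animals were left out (4 without MGNS 3, 2 without MGNS 2, 1 without MGHS 3). Chosen after seeing the data, at least 4 keratinocyte genes gave 3 and no lymphocyte exclusion 32. Calls in non-cycling nuclei, 2, were 735 with DESeq2, 196 with limma voom, 225 without the filter, 1 with at least 4 keratinocyte genes and 0 to 22 when single animals were left out (22 without MGHS 3). Calls of the class difference, 2, were 17, 10, 78 and 0 under the same changes and 0 to 12 without single animals (12 without MGHS 3). Members' single-gene values reversed for CAT (−0.13 after thinning) and IL18 (−0.23 without the lymphocyte exclusion).

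Same-numbered animals of the groups had correlations of −0.135, 0.019 and 0.095 in members, within the −0.205 to 0.227 of differently numbered ones. So few values gave no sign of pairing and cannot settle whether the numbers pair the animals. With a replicate block 7 genes were called in members, 145 in non-cycling nuclei and 0 for the class difference. Depth limits genes under 10 counts, and the smallest sum, MGNS 1, rests on 90 nuclei.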
